A study of Mus musculus with 9 samples.

Results

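The genes described here are 10 genes of plasma cell differentiation: Prdm1, Irf4, Xbp1, Ell2, Jchain, Mzb1, Fkbp11, Derl3, Sdc1 and Tnfrsf17. They were chosen by symbol from the 45361 gene identifiers of the count table, and each matched 1 identifier. Their RNA was measured in CH12F3 cells, B-lymphoma cells of the mouse that undergo class switching in culture. All cells carried a Ligase4 knockout, which removes the ligase of classical end joining, and all had been stimulated for 24 h with anti-CD40 antibody plus IL-4 and TGF-β. The groups were valemetostat, an inhibitor of the histone methyltransferases EZH1 and EZH2, tazemetostat, an inhibitor of EZH2, and the vehicle DMSO, with 3 poly(A) RNA libraries each. The labels do not give the inhibitors' doses or the length of exposure, and every group rests on the same knockout line. The study asked how transcription changes with either inhibitor.

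A B cell that becomes a plasma cell replaces the program that holds its identity with one for secreting antibody. IRF4 and BLIMP1, the product of Prdm1, are the transcription factors that drive this change, and BLIMP1 represses B cell genes. XBP1 then enlarges the endoplasmic reticulum (ER) and its machinery for folding and exporting protein. EZH2 places the repressive mark H3K27me3 and is known to work with BLIMP1 in plasma cell formation.

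Library totals ran from 34080504 to 46675110 counts. The knocked-out gene, Lig4, had 46, 31 and 33 counts in the valemetostat libraries, 59, 21 and 49 in the tazemetostat libraries and 30, 39 and 29 in the DMSO libraries. Low counts of Lig4 RNA were thus present in every group, and with no unedited cells among the libraries they do not check the deletion. The 5 B lineage markers Ptprc, Cd79a, Cd79b, Pax5 and Ebf1 were detected in every group, with a summed level of 655 to 687 TPM (a level per transcript length, scaled to a common total) in valemetostat, 630.1 to 658 in tazemetostat and 609 to 610.2 in DMSO libraries. Of these 5, Cd79a and Cd79b were called higher with each inhibitor and Ptprc lower, at -0.28 with valemetostat and -0.23 with tazemetostat on the log2 scale, and the median of the 5 was -0.08 and -0.14 in the same order. The 7 T cell markers summed to 1.84 to 9.12 TPM with valemetostat, 2.10 to 3.19 with tazemetostat and 1.82 to 6.56 with DMSO, where Cd8b1 was at 0 counts. The 7 myeloid markers summed to 12.9 to 14.5 TPM with valemetostat, 13.0 to 13.6 with tazemetostat and 12.2 to 16.2 with DMSO, and Cd14 was at 0 in all groups. Of the 4 myeloid markers tested, Lyz2 and Adgre1 were called higher and Csf1r lower with each inhibitor. For Lyz2, counts were enough for a test only through the inhibitor libraries, so its call is no independent support. Lyz2 had 145 counts with valemetostat, 167 with tazemetostat and 3 with DMSO over 3 libraries each, a ratio of 51.4 with valemetostat (exact counting interval 17.2 to 252) and 52.6 with tazemetostat (17.7 to 257). On the log2 scale Adgre1 was at 1.33 with valemetostat and 1.56 with tazemetostat, and Csf1r at -0.46 and -0.41 in the same order. The part of these markers in the members' values was not tested. The 8 stromal, endothelial and epithelial markers stayed at or under 1.94 TPM in sum in every library. In bulk RNA, fewer cells of a type and less RNA per cell cannot be told apart.

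Measured per transcript length, the secretory genes Mzb1 and Jchain stood at the top, the regulators Xbp1 and Irf4 in the middle and the surface markers at the floor. Mzb1 ran from 617.85 to 771.73 TPM and Jchain from 521.8 to 724.66 TPM over the 9 libraries, and these ranges overlapped. In DMSO cells Mzb1 ranked 184 and Jchain 195 among the 45361 identifiers. Xbp1, at 105.7 to 130.1 TPM, and Irf4, at 75.71 to 110.89 TPM, also overlapped each other and lay below Jchain in every library. Fkbp11 (36.55 to 45.83 TPM) and Ell2 (32.61 to 41.54 TPM) came next, followed by Prdm1 at 1.84 to 2.83 TPM. Derl3, Tnfrsf17 and Sdc1 never exceeded 0.7 TPM. High Mzb1 and Jchain RNA stood beside little Prdm1 and nearly no Sdc1 RNA in the vehicle cells too.

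**Figure D1:**
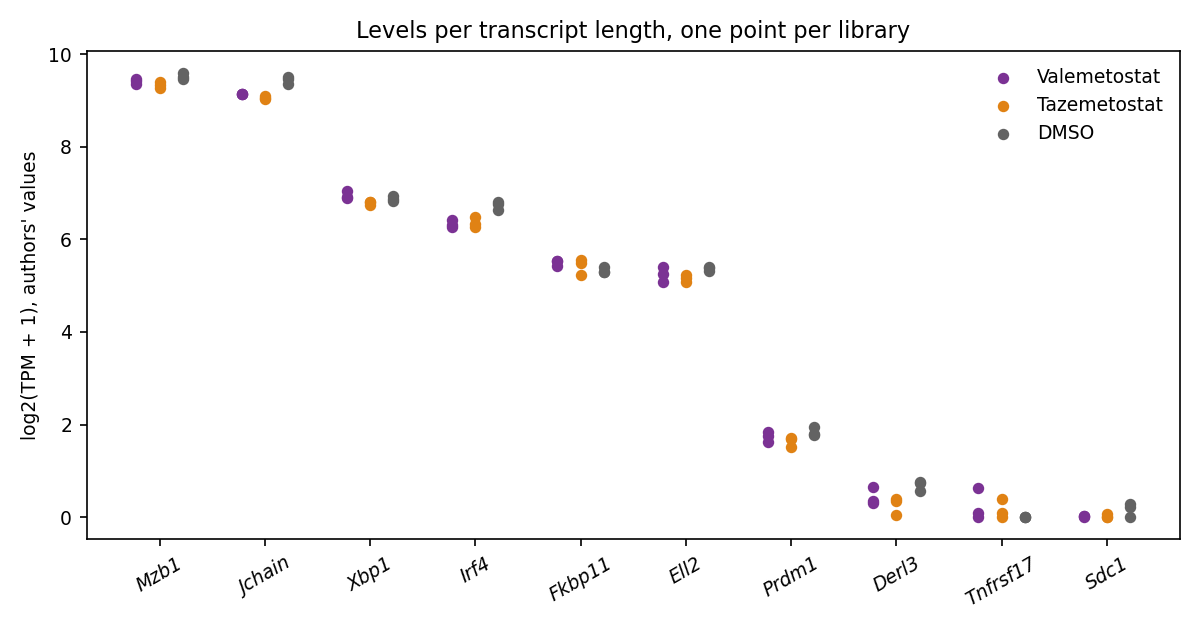
Level of each gene per transcript length, as the authors' log2(TPM + 1), with 1 point per library (valemetostat, tazemetostat and DMSO from left to right for each gene). Mzb1 and Jchain reach 771.73 and 724.66 TPM at most, Prdm1 stays at or under 2.83 TPM, and Derl3, Tnfrsf17 and Sdc1 at or under 0.7 TPM.

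Of the 10 genes, 7 had enough counts to be tested, and Derl3, Sdc1 and Tnfrsf17 did not. With valemetostat 3 of these 7 passed the test, Irf4 and Jchain lower and Xbp1 higher, and with tazemetostat 2 of 7 did, Irf4 and Jchain, both lower. The call required an adjusted p (Benjamini-Hochberg) under 0.05 in edgeR's quasi-likelihood test of 12580 genes. By the same rule 39.2% of all tested genes were called with valemetostat (20.5% higher and 18.7% lower) and 38.1% with tazemetostat (19.9% higher and 18.2% lower), so the members' share was near the background. The median log2 fold change of the 7 genes was -0.01 with valemetostat and -0.11 with tazemetostat, beside 0.01 and 0.00 over all tested genes. All 5 calls were changes of under 20%.

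Irf4, the factor needed both for class switching and for plasma cell formation, fell with both inhibitors. It had 291, 290 and 314 CPM (counts relative to the TMM-scaled library total) with valemetostat, 318, 291 and 292 CPM with tazemetostat and 350, 379 and 372 CPM with DMSO. All 6 inhibitor libraries lay below all 3 DMSO libraries. Taken alone, the 3 valemetostat libraries did so for 23.7% of tested genes and the 3 tazemetostat libraries for 23.3%. The share for all 6 together was not computed. The group means were 298 ± 13.6 CPM with valemetostat, 300 ± 15.1 CPM with tazemetostat and 367 ± 14.95 CPM with DMSO (SD, n = 3 each). The log2 fold change against DMSO was -0.30 ± 0.05 (SE) with valemetostat, a change of -18.9% with a 95% interval of -24.1 to -13.2%, and edgeR's adjusted p was 1.40e-05. With tazemetostat it was -0.29 ± 0.05, a change of -18.2% with an interval of -23.6 to -12.5%, and edgeR's adjusted p was 2.31e-05. The call held under all 16 alternative settings of each comparison. The 250 bases upstream of the annotated Irf4 start are shown because Irf4 is the regulator that fell with both inhibitors. They lie at chr13:30748983-30749232 on the plus strand (RefSeq, GRCm38.p6), are written 5′ to 3′, and capitals mark CCACG, a part of the element through which XBP1 acts.
Irf4: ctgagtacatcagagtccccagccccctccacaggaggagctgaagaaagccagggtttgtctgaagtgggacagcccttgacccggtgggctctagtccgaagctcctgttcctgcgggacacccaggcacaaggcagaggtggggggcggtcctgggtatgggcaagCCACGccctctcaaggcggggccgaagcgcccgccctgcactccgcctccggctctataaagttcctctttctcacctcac

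Prdm1 encodes BLIMP1, the repressor that ends the B cell program. It had 289, 254 and 332 counts with valemetostat, 281, 333 and 275 with tazemetostat and 425, 317 and 290 with DMSO. Scaled, these were 7.37, 7.36 and 8.98 CPM with valemetostat, 6.11, 7.75 and 7.72 CPM with tazemetostat and 8.96, 9.19 and 8.13 CPM with DMSO. The valemetostat libraries overlapped the DMSO libraries, while the 3 tazemetostat libraries lay below them. Of all tested genes, 23.3% lay below DMSO in that way. Its log2 fold change was -0.15 ± 0.13 (95% interval -0.42 to 0.12) with valemetostat, with an adjusted p of 0.403 by edgeR. With tazemetostat it was -0.29 ± 0.13 (-0.56 to -0.01), with an adjusted p of 0.0918 by edgeR. The estimate with tazemetostat was about the size of that of Irf4, but its error was larger and it did not pass the threshold.

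Xbp1, the ER stress factor behind the secretory program, rose with valemetostat. Its values were 181, 191 and 179 CPM with valemetostat, 158, 161 and 174 CPM with tazemetostat and 158, 161 and 157 CPM with DMSO. The valemetostat libraries lay above all others, which against DMSO held for 24.8% of tested genes, and the tazemetostat libraries overlapped DMSO. The log2 fold change with valemetostat was 0.21 ± 0.05, an increase of 15.4% with an interval of 8.02 to 23.2%, and edgeR's adjusted p was 0.00084. With tazemetostat it was 0.05 ± 0.05 (-0.05 to 0.14), with an adjusted p of 0.449 by edgeR. The direct difference between valemetostat and tazemetostat was 0.16 (0.06 to 0.25) on the log2 scale, and its adjusted p of 0.213 did not pass. On the authors' log2(TPM + 1) scale the valemetostat call ended, at 0.07 with a limma adjusted p of 0.345. The counts were not split by isoform, so the spliced, active form of Xbp1 was not measured.

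Ell2, an elongation factor that favours the secreted form of the immunoglobulin heavy chain mRNA, kept close values in the 3 groups. It had 119, 112 and 112 CPM with valemetostat, 117, 118 and 115 CPM with tazemetostat and 112, 116 and 117 CPM with DMSO. The groups overlapped fully. The log2 fold change was -0.01 (-0.10 to 0.09) with valemetostat and 0.02 (-0.08 to 0.12) with tazemetostat, so changes beyond about 9% in either direction lay outside both intervals. Other scalings put these estimates on either side of 0. On log2(TPM + 1) they lay outside these intervals, at -0.12 with valemetostat (limma adjusted p 0.287) and -0.22 with tazemetostat (limma adjusted p 0.0763). No setting led to a call.

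Jchain, which encodes the joining chain of IgM and IgA polymers, fell with both inhibitors. It had 542, 557 and 544 CPM with valemetostat, 522, 506 and 519 CPM with tazemetostat and 603, 624 and 683 CPM with DMSO. All inhibitor libraries were below all DMSO libraries, and the DMSO libraries spread most. Each inhibitor taken alone, this held for 23.7% of tested genes with valemetostat and 23.3% with tazemetostat. The means were 548 ± 7.75 CPM with valemetostat, 516 ± 8.53 CPM with tazemetostat and 637 ± 41.4 CPM with DMSO (SD, n = 3 each). The log2 fold change was -0.22 ± 0.05 with valemetostat, a change of -14.0% (-19.3 to -8.24%), and edgeR's adjusted p was 0.000398. With tazemetostat it was -0.30 ± 0.05, a change of -18.9% (-24.0 to -13.6%), and edgeR's adjusted p was 7.24e-06. This call too held under all 16 alternatives of each comparison. The window upstream of Jchain, the second gene lower with both inhibitors, lies at chr5:88527898-88528147 on the minus strand (RefSeq, GRCm38.p6). Written 5′ to 3′, it has no capitals because none of the 7 motifs searched was found there.
Jchain: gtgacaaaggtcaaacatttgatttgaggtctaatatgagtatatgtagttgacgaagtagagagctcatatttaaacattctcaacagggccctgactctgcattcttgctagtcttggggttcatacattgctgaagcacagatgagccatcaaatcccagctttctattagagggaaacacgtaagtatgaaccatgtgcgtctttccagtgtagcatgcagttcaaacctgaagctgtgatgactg

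The J chain's heavy chain partner moved the other way. Ighm, the constant region of IgM, averaged 2158 ± 55.2 CPM with valemetostat, 2062 ± 25.8 CPM with tazemetostat and 1780.5 ± 138 CPM with DMSO (SD, n = 3 each). Its log2 fold change was 0.28 ± 0.05 with valemetostat (edgeR adjusted p 4.29e-05) and 0.21 ± 0.05 with tazemetostat (edgeR adjusted p 0.000915), and the tazemetostat call ended on log2(TPM + 1), with a limma adjusted p of 0.0809. As a description, the ratio of Jchain TPM to Ighm TPM was 0.273 to 0.286 with valemetostat, 0.270 to 0.284 with tazemetostat and 0.383 to 0.404 with DMSO. Igha, the constant region of the class these cells switch to, did not pass the test, at -0.04 ± 0.05 with valemetostat and 0.01 ± 0.05 with tazemetostat. Igkc, the kappa light chain, stood at 0.08 ± 0.06 and 0.07 ± 0.06 in the same order and did not pass either. Over all tested genes, 20.5% were higher and 18.7% lower with valemetostat, and 19.9% higher and 18.2% lower with tazemetostat. Of the 10 immunoglobulin constant region genes tested, 3 were higher and 1 lower with each inhibitor, a share near that background. Among those higher, Ighg2b rose by 1.25 with valemetostat and 1.46 with tazemetostat, to means of 7.84 and 9.07 CPM against 3.31 CPM with DMSO. The gene called lower was Iglc2, at -0.25 and -0.45 in the same order, and its valemetostat call ended on log2(TPM + 1). Reads of such similar genes may have been assigned to one another, so their values are uncertain.

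**Figure D2:**
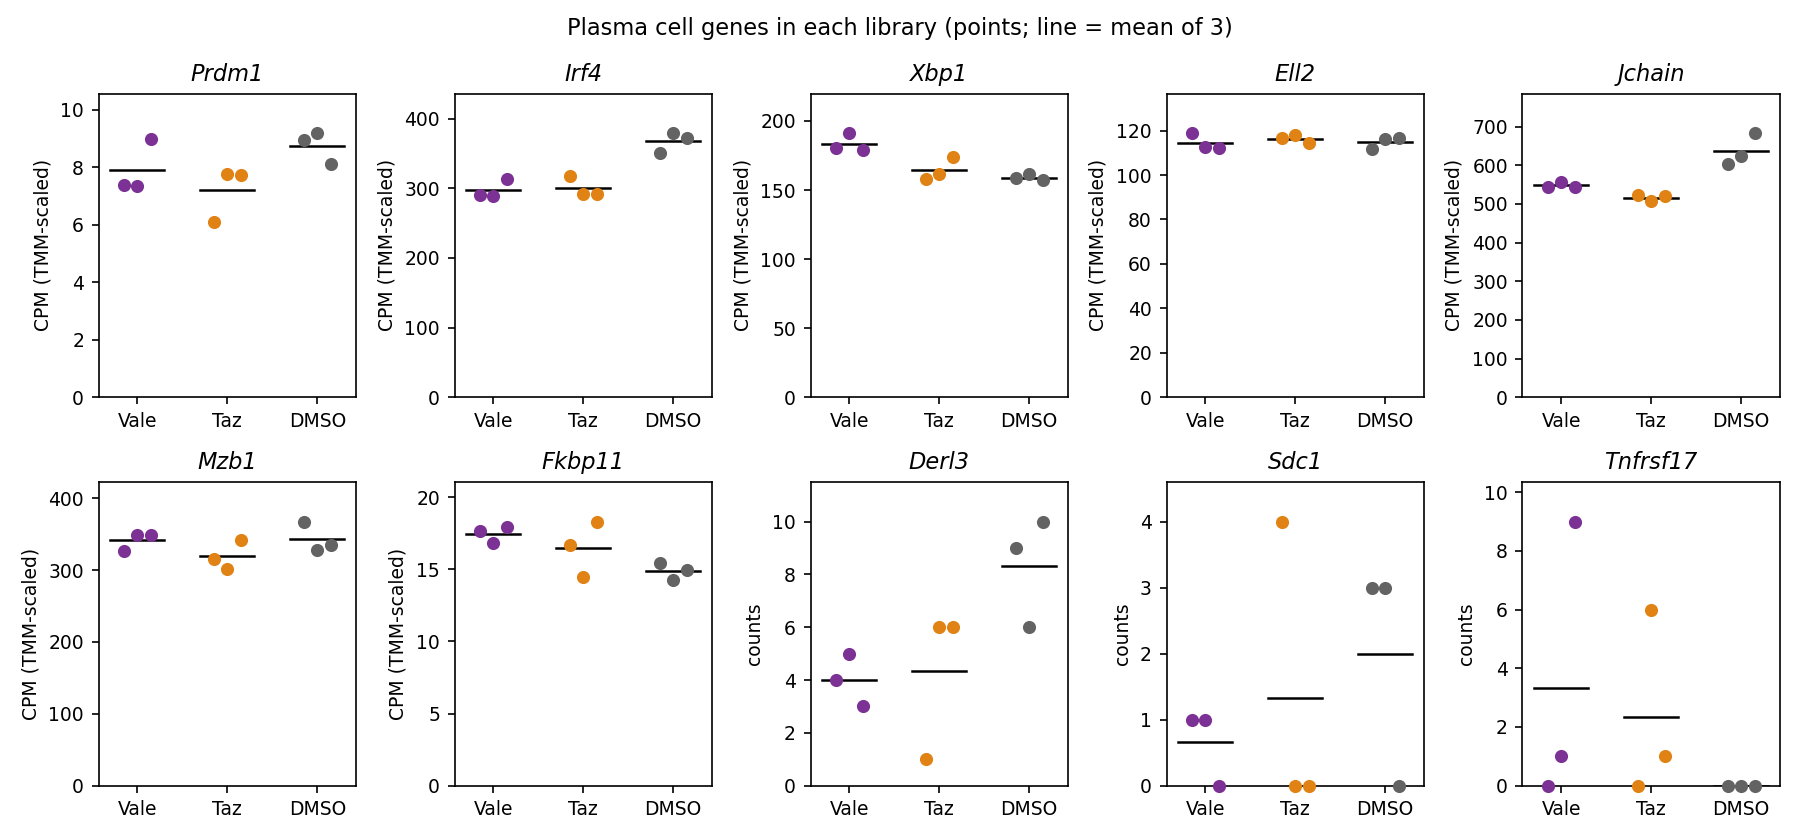
Each gene in each library (points) with the mean of 3 (line), valemetostat, tazemetostat and DMSO from left to right; the axis is TMM-scaled CPM, or counts for Derl3, Sdc1 and Tnfrsf17. Irf4 and Jchain lie below DMSO in all 6 inhibitor libraries, Xbp1 lies above DMSO in the 3 valemetostat libraries, and the last 3 genes have at most 10 counts in any library.

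Mzb1, an ER protein that helps IgM assembly and secretion, had 326, 349 and 349 CPM with valemetostat, 315, 301 and 342 CPM with tazemetostat and 367, 328 and 335 CPM with DMSO. The groups overlapped. Against DMSO the log2 fold change was -0.01 ± 0.05 with valemetostat (edgeR adjusted p 0.907) and -0.11 ± 0.05 with tazemetostat (edgeR adjusted p 0.104). Its reference transcript is short, 904 nt, shorter than those of all but 5.34% of tested genes, and counts shifted with transcript length between these libraries. With an offset for transcript length and GC content Mzb1 was called lower with both inhibitors, at -0.18 with valemetostat (edgeR adjusted p 0.000385) and at -0.25 with tazemetostat (edgeR adjusted p 4.60e-06). It was also called lower with tazemetostat on log2(TPM + 1), at -0.18 with a limma adjusted p of 0.0213, on library totals without TMM, at -0.13 with an edgeR adjusted p of 0.0372, and without tazemetostat replicate 3, at -0.15 with an edgeR adjusted p of 0.0303. In TPM it had 655, 687 and 704 with valemetostat, 642, 618 and 673 with tazemetostat and 772, 721 and 701 with DMSO.

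Fkbp11, a prolyl isomerase of the secretory pathway, had 17.7, 16.9 and 17.9 CPM with valemetostat, 16.7, 14.5 and 18.3 CPM with tazemetostat and 15.4, 14.3 and 14.97 CPM with DMSO. The valemetostat libraries lay above the DMSO libraries, as for 24.8% of tested genes, and the tazemetostat libraries overlapped them. Its log2 fold change was 0.23 ± 0.09 (0.04 to 0.43) with valemetostat, with an adjusted p of 0.0547 by edgeR just outside the threshold. It passed when genes were filtered at 1 CPM (adjusted p 0.0458 by edgeR) and when the 2 groups were fitted alone (0.0441). With tazemetostat it was 0.15 ± 0.09 (-0.05 to 0.34), with an adjusted p of 0.240 by edgeR.

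Derl3, an ER-associated degradation factor induced by XBP1, had 4, 5 and 3 counts with valemetostat, 1, 6 and 6 with tazemetostat and 9, 6 and 10 with DMSO. The ratio of summed, scaled counts was 0.510 with valemetostat, with an exact 95% counting interval of 0.233 to 1.05, and 0.491 with tazemetostat (0.231 to 0.997). With no filter on counts edgeR's adjusted p was 0.586 with valemetostat and 0.583 with tazemetostat. A difference was not detectable at this depth by that test. Its upstream window is shown because it was the only one of 9 member windows with the full ER stress element (CCAAT and CCACG with 9 bases between), which XBP1 and ATF6 are known to use. The window lies at chr10:75893148-75893397 on the plus strand (RefSeq, GRCm38.p6). Capitals mark that element, which reads on the opposite strand 156 to 138 bases before the start, and 2 further copies of CCACG.
Derl3: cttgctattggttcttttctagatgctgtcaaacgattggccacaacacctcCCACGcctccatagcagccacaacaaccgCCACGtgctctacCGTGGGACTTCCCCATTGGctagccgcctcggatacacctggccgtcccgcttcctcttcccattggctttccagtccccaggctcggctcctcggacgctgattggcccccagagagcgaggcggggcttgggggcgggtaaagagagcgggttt

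A count of 7 motifs was made in these windows on both strands. Of the 10 genes, 9 matched the promoter table, and Mzb1 did not. The full ER stress element was in 0.113% of 32851 windows of the same length. Its part CCACG, which the full element contains, was in 28.3% of all windows and in 5 of the 9 members' windows (Derl3, Fkbp11, Irf4, Prdm1 and Sdc1). A pair of GAAA with 2 bases between, of the kind IRF factors bind, was in 2.98% of windows and in that of Tnfrsf17. No member window held TGACGTG (1.65% of all windows), GGAA and GAAA with 2 bases between (2.30%), GTGAAAG (3.57%) or the octamer of immunoglobulin promoters (1.601%). A match describes the letters of the window and is not shown to be a bound site.

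The surface markers of plasma cells were close to absent. Sdc1 encodes syndecan-1 (CD138), the standard plasma cell marker, and had 1, 1 and 0 counts with valemetostat, 4, 0 and 0 with tazemetostat and 3, 3 and 0 with DMSO. A count of 0 allows up to 3 counts in a library, or 0.0632 to 0.0870 CPM over these libraries. Tnfrsf17 encodes BCMA, the receptor for APRIL on plasma cells, and had 0, 1 and 9 counts with valemetostat, 0, 6 and 1 with tazemetostat and 0 in all 3 DMSO libraries. Set against a floor of 3 counts over the DMSO group, the summed Tnfrsf17 count gave ratios of 3.54 with valemetostat and 2.20 with tazemetostat. The exact counting interval, which also carries the error of the inhibitor counts, begins at 2.38 with valemetostat and at 1.36 with tazemetostat, so by counting error alone Tnfrsf17 was at least 2.38-fold and at least 1.36-fold higher. Valemetostat replicate 3 held 9 of the 10 counts and tazemetostat replicate 2 held 6 of 7. With no filter on counts edgeR's adjusted p was 0.0875 with valemetostat and 0.156 with tazemetostat, so neither passed.

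The other receptors for BAFF and APRIL were far more abundant. Of 3 tested receptor and ligand genes, 2 were called higher with valemetostat and 3 with tazemetostat. Over all tested genes 20.5% and 19.9% were higher in the same order. The ligand gene Tnfsf13b, called with each inhibitor, had 36 counts with valemetostat, 41 with tazemetostat and 7 with DMSO over 3 libraries each. It had enough counts to be tested only through the inhibitor libraries. Tnfrsf13c, the BAFF receptor of B cells, rose with both inhibitors, with means of 162 ± 15.1 CPM with valemetostat, 178 ± 4.82 CPM with tazemetostat and 109 ± 3.53 CPM with DMSO. Its log2 fold change was 0.58 ± 0.05 with valemetostat (edgeR adjusted p 4.20e-09) and 0.72 ± 0.05 with tazemetostat (edgeR adjusted p 8.46e-11). Tnfrsf13b, which encodes TACI, was at 0.02 ± 0.05 with valemetostat (edgeR adjusted p 0.812) and rose by 0.15 ± 0.05 with tazemetostat (edgeR adjusted p 0.0105), a call that ended on log2(TPM + 1), without DMSO replicate 1 (0.11, edgeR adjusted p 0.0876) and without tazemetostat replicate 1 (0.14, edgeR adjusted p 0.0551).

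No member was called between the inhibitors, where 0.318% of tested genes were. The difference of valemetostat minus tazemetostat was -0.01 (-0.11 to 0.09) for Irf4, 0.09 (-0.01 to 0.18) for Jchain and 0.10 (-0.01 to 0.20) for Mzb1 on the log2 scale. For Prdm1 it was 0.14 (-0.14 to 0.41), for Fkbp11 0.09 (-0.11 to 0.28) and for Ell2 -0.03 (-0.12 to 0.07). The intervals of Irf4 and Ell2 leave room for differences of up to about 8%, while that of Prdm1 reaches 33.2%. The 3 Jchain values with valemetostat lay above the 3 with tazemetostat, as they did for Xbp1 and for 6.97% of tested genes. Both comparisons with DMSO share the 3 DMSO libraries. In the contrast of both inhibitors together against DMSO, where 44.2% of genes were called (22.7% higher and 21.5% lower), the members called were Irf4 at -0.30, Jchain at -0.26 and Xbp1 at 0.13, with edgeR adjusted p-values of 1.51e-06, 5.08e-06 and 0.0120. That call of Xbp1 ended with the length and GC offset and on log2(TPM + 1).

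**Figure D3:**
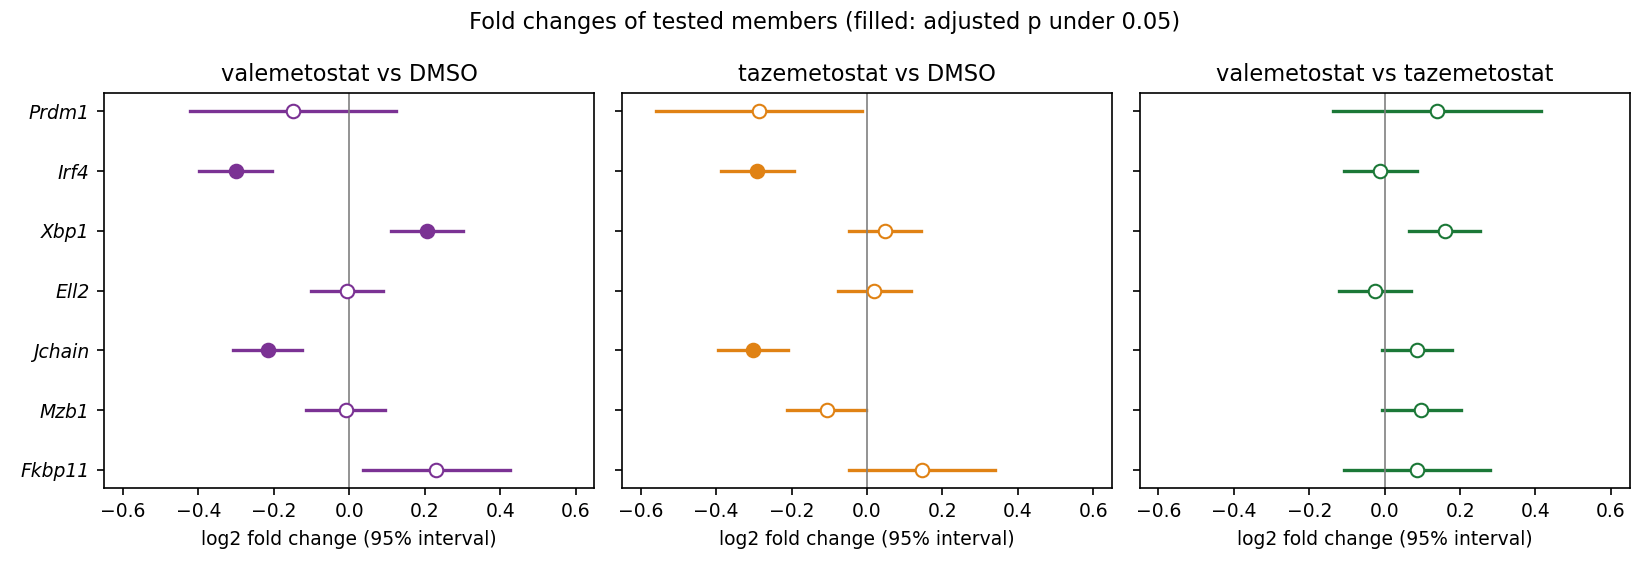
Log2 fold change with its 95% interval for the 7 tested genes, with valemetostat against DMSO, tazemetostat against DMSO and valemetostat against tazemetostat from left to right; filled points passed the adjusted threshold of 0.05. Irf4 and Jchain are filled at -0.30 to -0.22 in both comparisons with DMSO, and no point is filled between the inhibitors.

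The scaling changed the members to different degrees. Deviations of a gene's log2 CPM from its mean, correlated over genes with transcript length (Spearman), gave -0.25, -0.45 and -0.24 in the valemetostat libraries, -0.03, -0.01 and -0.44 in the tazemetostat libraries and 0.29, 0.48 and 0.21 in the DMSO libraries. Short transcripts thus had relatively more counts with the inhibitors, and the part of this shift in each gene's change was not tested beyond the offset. With the offset Irf4 was at -0.27 with both inhibitors, and Jchain at -0.26 with valemetostat and -0.35 with tazemetostat. Xbp1 with valemetostat was at 0.13 and was still called, with an edgeR adjusted p of 0.0072.

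**Figure D4:**
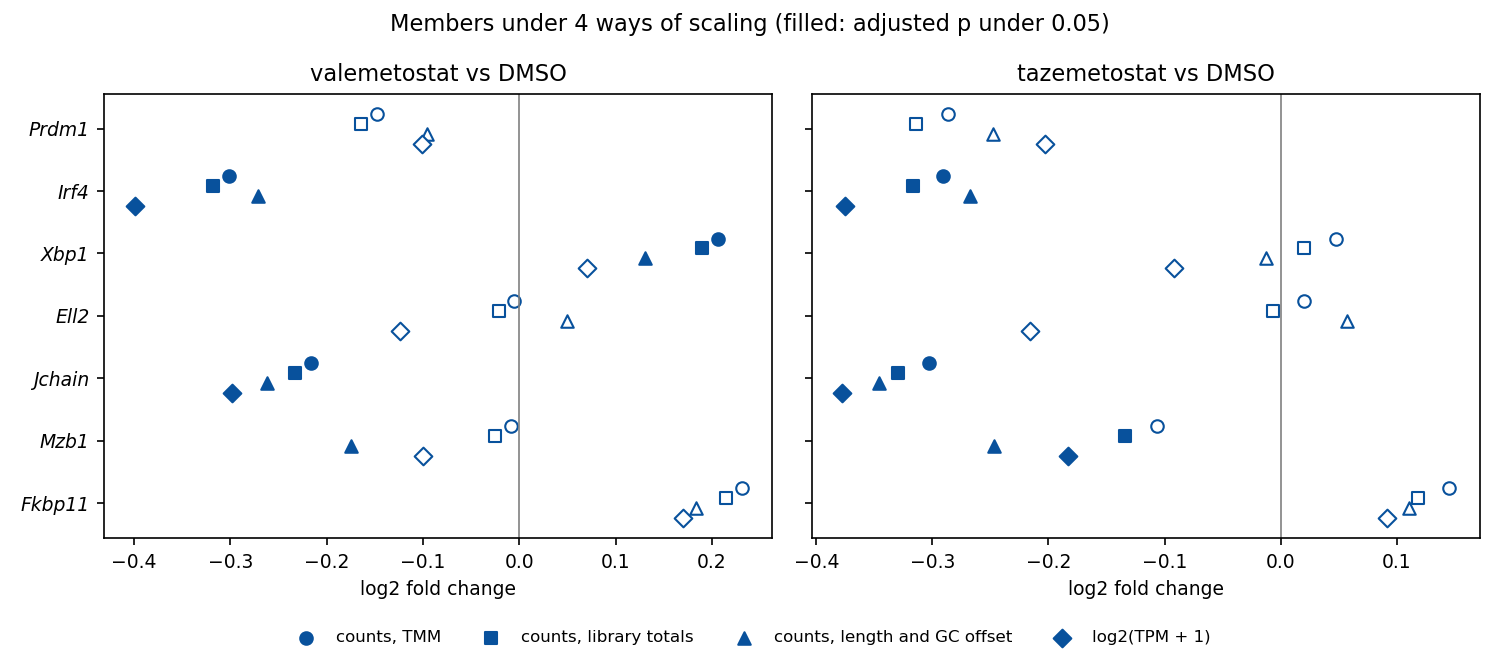
Log2 fold change of the 7 tested genes under 4 ways of scaling, with valemetostat (left) and tazemetostat (right) against DMSO; filled symbols passed the adjusted threshold of 0.05. Irf4 and Jchain are filled on the negative side throughout, and Xbp1 loses its valemetostat call on log2(TPM + 1). Mzb1 is filled at -0.18 with valemetostat and -0.25 with tazemetostat with the length and GC offset. With tazemetostat it is also filled on library totals (-0.13) and on log2(TPM + 1) (-0.18).

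Around the members, 24 other plasma cell genes were followed, of which 21 were tested. They were chosen with earlier results of these data known, so their counts do not test them as a group. With valemetostat 10 were called higher and 1 lower, and with tazemetostat 9 higher and 3 lower, where all tested genes had 20.5% higher and 18.7% lower with valemetostat and 19.9% higher and 18.2% lower with tazemetostat. Their median log2 fold change was 0.14 with valemetostat and 0.15 with tazemetostat. Ctla4, an inhibitory receptor, rose by 0.92 ± 0.08 with valemetostat (edgeR adjusted p 2.07e-09) and by 1.11 ± 0.08 with tazemetostat (edgeR adjusted p 6.03e-11). It averaged 28.1 ± 2.62 CPM with valemetostat, 32.0 ± 2.03 CPM with tazemetostat and 14.8 ± 0.732 CPM with DMSO. The tetraspanin gene Cd9 rose by 0.90 and 0.83, and Cd28, a costimulatory receptor that also serves long-lived plasma cells, by 0.57 and 0.68, with valemetostat and tazemetostat in that order. Glcci1 fell by 0.39 with valemetostat and by 0.45 with tazemetostat, and its valemetostat call ended on log2(TPM + 1). On that scale the list had 6 higher and 0 lower calls with valemetostat, and 6 higher and 2 lower with tazemetostat. The shares above do not apply there, where the median of all tested genes was -0.07 with each inhibitor.

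Among 12 regulators that hold the B cell state, Bach2 and Irf8 moved most and in opposite directions. Bach2, a repressor of Prdm1, rose by 1.19 ± 0.07 with valemetostat (edgeR adjusted p 1.61e-12) and by 1.46 ± 0.07 with tazemetostat (edgeR adjusted p 2.33e-14). Its means were 39.2 ± 2.42 CPM with valemetostat, 47.2 ± 1.32 CPM with tazemetostat and 17.1 ± 1.38 CPM with DMSO. Irf8, a relative of Irf4 important in germinal centre B cells, fell by 0.85 ± 0.06 with valemetostat and by 0.79 ± 0.06 with tazemetostat. Bhlhe41 fell by 0.66 and 0.64 in the same order. Pax5, the keeper of B cell identity that BLIMP1 represses, was at -0.21 ± 0.08 with valemetostat (edgeR adjusted p 0.0612) and -0.15 ± 0.08 with tazemetostat (edgeR adjusted p 0.173), neither of which passed. Bcl6, the germinal centre repressor of Prdm1, had 0 counts in all libraries. Of the 11 tested regulators, 2 were higher and 4 lower with valemetostat and 3 higher and 2 lower with tazemetostat. The shares over all tested genes were 20.5% higher and 18.7% lower with valemetostat, and 19.9% higher and 18.2% lower with tazemetostat. Myc, another target of BLIMP1 repression, fell by 0.20 ± 0.04 with valemetostat and by 0.28 ± 0.04 with tazemetostat.

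Of the listed B cell genes that plasma cells normally shut down, most were called higher. The list was chosen with earlier results of these data known, so its counts do not test these genes as a group. Of 16 such B cell genes, 12 were called higher and 2 lower with valemetostat, and 11 higher and 2 lower with tazemetostat, with median log2 fold changes of 0.26 and 0.22. On log2(TPM + 1) the tazemetostat counts were 7 higher and 2 lower, where 3123 genes in all were called, 37.7% of them higher. By edgeR, 20.5% of all tested genes were higher and 18.7% lower with valemetostat, and 19.9% higher and 18.2% lower with tazemetostat. The medians over all tested genes were 0.01 and 0.00 in the same order. Fcer2a, the low-affinity IgE receptor CD23, rose by 1.32 ± 0.06 with valemetostat and by 1.35 ± 0.06 with tazemetostat. Cr2, complement receptor CD21, had 290 counts with valemetostat, 230 with tazemetostat and 3 with DMSO over 3 libraries each. The ratio was 103 with valemetostat (exact counting interval 34.8 to 501) and 72.4 with tazemetostat (24.5 to 354). Cr2 is counted among the genes called higher, though it had enough counts to be tested only through the inhibitor libraries. Cd79b, a signalling chain of the B cell receptor, rose by 0.60 and 0.43. Ciita, the MHC class II transactivator, fell by 0.18 and 0.21, and the kinase gene Blk by 0.19 and 0.37, with valemetostat and tazemetostat in that order. Blk lost its valemetostat call without DMSO replicate 1, without DMSO replicate 3 and without valemetostat replicate 1, and Ciita lost its own with the length and GC offset.

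Of the 34 tested genes of the ER and secretory machinery, many of them targets of XBP1, 12 were higher and 6 lower with valemetostat, where 20.5% of all tested genes were higher and 18.7% lower. With tazemetostat 7 were higher and 5 lower, where 19.9% of all tested genes were higher and 18.2% lower. On log2(TPM + 1) the counts were 4 higher and 7 lower with valemetostat and 2 higher and 6 lower with tazemetostat. The shares above do not apply to that scale, where the median of all tested genes was -0.07 with each inhibitor. The list's median there was -0.01 with valemetostat and -0.07 with tazemetostat. With tazemetostat 3123 genes were called on that scale, 37.7% of them higher. The chaperone gene Calr rose by 0.26 ± 0.04 with valemetostat and by 0.27 ± 0.04 with tazemetostat. Sec61g, a subunit of the translocation channel, rose by 0.31 and 0.27 in the same order. Sel1l and Syvn1, the core of the ER degradation ligase, fell, Sel1l by 0.50 ± 0.04 with valemetostat and by 0.59 ± 0.04 with tazemetostat, and Syvn1 by 0.28 and 0.27. Herpud1, of the same degradation route, fell by 0.29 and 0.27. Ern1, which encodes IRE1, the enzyme that splices Xbp1 mRNA, fell by 0.45 ± 0.09 with valemetostat and by 0.46 ± 0.09 with tazemetostat. Hspa5, the chaperone BiP, did not pass, at 0.07 ± 0.04 and 0.03 ± 0.04.

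The partners of ELL2 in elongation and in the choice of immunoglobulin 3′ ends were lower more often than higher. Of 16 tested, 2 were higher and 7 lower with valemetostat, and 1 higher and 7 lower with tazemetostat. Among all tested genes, 20.5% were higher and 18.7% lower with valemetostat, and 19.9% higher and 18.2% lower with tazemetostat. Eaf1, an ELL-associated factor, fell by 0.38 ± 0.06 with each inhibitor. Aff1, a scaffold of the super elongation complex, fell by 0.53 ± 0.06 with valemetostat and by 0.40 ± 0.06 with tazemetostat. The median transcript of this list had 4748 nt, against 3240 nt over all tested genes. With the length and GC offset 3 were higher and 7 lower with valemetostat, and 1 higher and 7 lower with tazemetostat.

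Of 18 tested paralogues of the members, 2 were higher and 3 lower with valemetostat and 5 higher and 3 lower with tazemetostat, where all tested genes had 20.5% higher and 18.7% lower with valemetostat and 19.9% higher and 18.2% lower with tazemetostat. Sdc3, a syndecan, rose by 0.90 ± 0.12 with valemetostat and by 0.82 ± 0.12 with tazemetostat, and averaged 13.2 ± 1.06 CPM with valemetostat, 12.5 ± 1.44 CPM with tazemetostat and 7.10 ± 0.428 CPM with DMSO. Derl1, a relative of Derl3, fell by 0.15 ± 0.04 and 0.17 ± 0.04, and lost its valemetostat call without valemetostat replicate 3. Derl2 was at -0.09 ± 0.08 and -0.02 ± 0.08 and did not pass. Prdm2, a relative of Prdm1, fell by 0.51 ± 0.08 with valemetostat and by 0.40 ± 0.08 with tazemetostat.

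**Figure D5:**
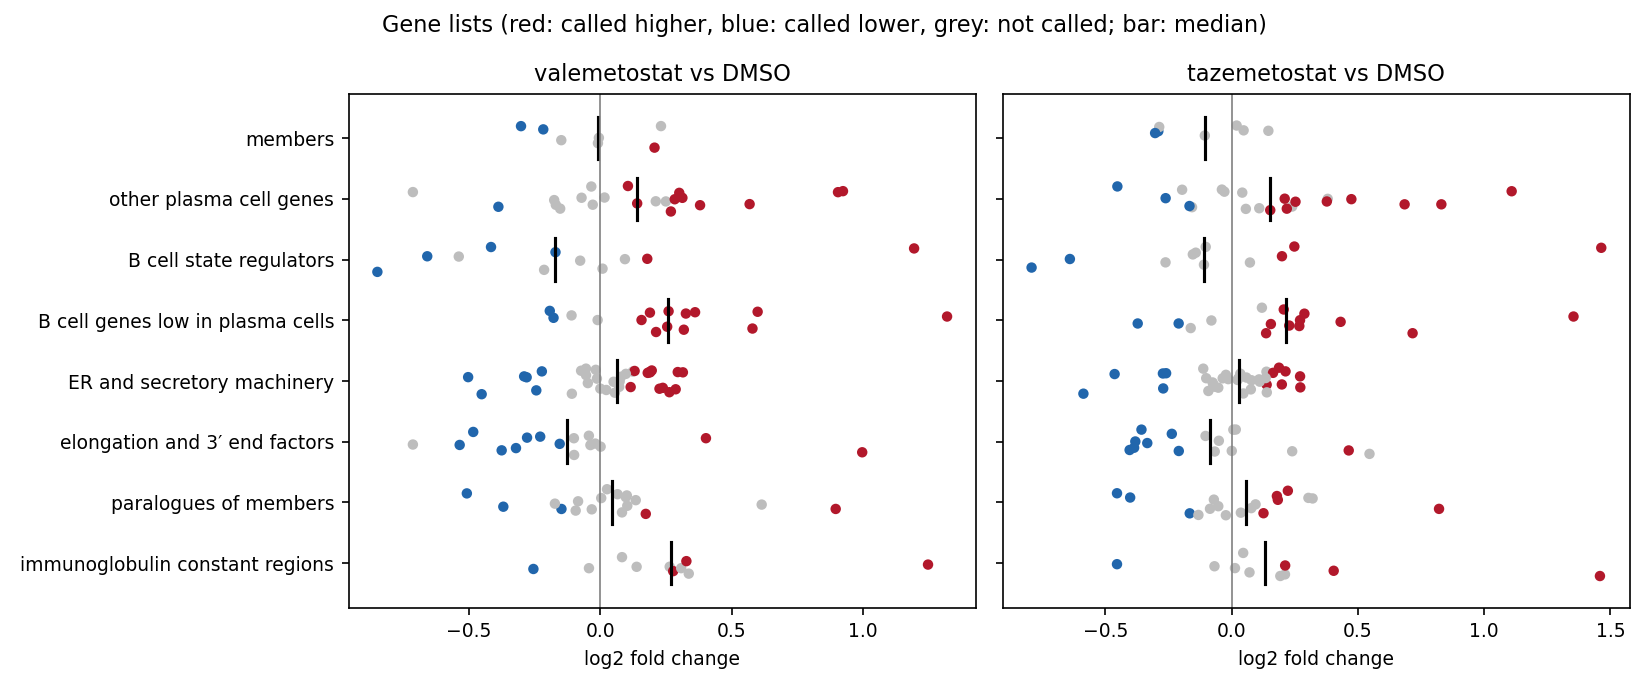
Log2 fold change of every tested gene of each list drawn, with valemetostat (left) and tazemetostat (right) against DMSO. Red points were called higher, blue lower and grey not called, and bars are list medians. The BAFF and APRIL genes and the cell type markers are not drawn as lists. Cr2, whose ratio exceeds the axis, is counted in its list's median but not drawn; the B cell genes that plasma cells shut down have 12 genes called higher with valemetostat and 11 with tazemetostat.

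Over the 9 libraries, the genes whose log2 CPM followed Irf4 most closely among 8952 genes were Gpr137b (Pearson r 0.992), Pde7a (0.984) and Zfp141 (0.976). Those closest to Xbp1 were Rbmxl1 (0.956), Borcs5 (0.944) and Zdhhc12 (0.938), and those closest to Prdm1 were Ripor2 (0.944), Kifc5b (0.933) and E2f1 (0.931). These values describe libraries that share groups and scaling, and carry no test.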

How the data were processed

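Poly(A) RNA of 9 libraries was sequenced as read pairs, per the labels' protocols. The authors deposited whole-number counts per gene and log2 values. The deposited log2 values equal log2(TPM + 1) with TPM in hundredths. Per the submitters' processing notes, mm9 was the genome build. The sources used here do not give the aligner, the counting program or its strand setting, so overlapping genes cannot be told apart.

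Counts were tested with edgeR 4.0.16 in R 4.3.3 (TMM, filterByExpr with a minimum count of 10 and total of 15, robust quasi-likelihood F test), all 9 libraries in 1 fit, with calls under 0.05 after Benjamini-Hochberg adjustment over 12580 genes. Each standard error is the size of the log2 fold change divided by the root of its F statistic. Intervals are 95%. The fit was also run on counts simulated from its own means and spread. Those counts held few changed genes and no shift with transcript length or GC content, so they do not check the fit under such shifts. Counting intervals, and floors of 3 counts, describe counting error only. Alternatives were DESeq2 1.42.0, other scalings and filters, limma 3.58.1 on log2(TPM + 1) or log2(TPM + 0.1), the replicate number as a term, only the groups compared, leaving out each library, and an offset for length and GC content (spline with 5 degrees of freedom, GENCODE M21 transcripts). Counts of lists under these alternatives were added after seeing the data.

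Members and lists were chosen with earlier results of these data known. Named genes are the members, up to 4 called genes per list and direction with the smallest adjusted p, a fixed set of regulators and immunoglobulin genes, and the 3 genes closest to each of 3 factors. Not all of these are printed, and 2 genes left out of the lists are not reported here. Separate cultures are not stated for the replicates, so p-values reflect only how these libraries vary, possibly for technical reasons. Replicate pairs differed by more than sampling noise (chi-square per degree of freedom 5.29 to 13.6).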

Additional observations from a re-analysis of the deposited data

How the results depend on the processing

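Irf4 and Jchain kept their calls with both inhibitors under every alternative run, from -0.40 to -0.26 for Irf4 and from -0.38 to -0.16 for Jchain. The calls of Prdm1 and Ell2 never passed. Same-numbered replicates did not deviate together (r from -0.03 to 0.08 over 9 pairs), so the numbers were not taken as pairing. With the replicate block, 4714 genes were called with valemetostat (4927 without it), 4527 with tazemetostat (4794), 32 between the inhibitors (40) and 5356 with both together (5559). The block changed no call of a member.

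Members called higher with valemetostat numbered 1, against 2 with the filter of 1 CPM, 2 with only the groups compared and 0 on log2(TPM + 1) or log2(TPM + 0.1). In the contrast of both inhibitors there was 1, against 0 on both TPM scales and 0 with the length and GC offset. Leaving out libraries gave 1 to 2 here, the second being Fkbp11 without tazemetostat replicate 2 (0.23, edgeR adjusted p 0.0243), and 2 to 3 members called lower with tazemetostat.

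Genes called with tazemetostat numbered 3123 on log2(TPM + 1) and 3194 on log2(TPM + 0.1), and the share called higher fell to 37.7% and 39.1%. Genes called between the inhibitors numbered 40, against 77 with DESeq2, 93 with no filter, 80 with the offset, 1 on each TPM scale and 9 to 73 leaving out libraries. The TPM scale also lowered the median of all genes, to -0.07 with each inhibitor.

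On log2(TPM + 1) and log2(TPM + 0.1) alike, fewer list genes were called: with valemetostat 6 other plasma cell genes, 11 ER genes and 3 paralogues; with tazemetostat 3 regulators, 1 BAFF or APRIL gene, 3 paralogues and 2 immunoglobulin genes. Of the partners of ELL2, 4 and 5 were called with tazemetostat on these scales. BAFF and APRIL genes called with valemetostat numbered 2 of 3 tested in the main fit. They fell to 1 with the 1 CPM filter, on log2(TPM + 1) and with only the groups compared.

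Leaving out libraries gave 1 to 3 BAFF and APRIL genes with tazemetostat and 1 to 2 with valemetostat. Immunoglobulin genes called numbered 2 to 6 with valemetostat and 3 to 5 with tazemetostat. Paralogues numbered 5 to 8 with tazemetostat and 3 to 6 with valemetostat. ER genes numbered 10 to 14 with tazemetostat and 13 to 18 with valemetostat, and regulators 5 to 8 with valemetostat. Over all genes, 4072 to 4818 were called with valemetostat (4927 in the main fit) and 3926 to 4676 with tazemetostat (4794).

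The sign turned for these estimates, all uncalled on counts except Prdm15 with valemetostat, called lower, and Xbp1 with both inhibitors, called higher. Ell2 with valemetostat was 0.00106 with no filter, 0.0023 with the 1 CPM filter, 5.61e-05 with only the groups compared and 0.0497 with the offset. With tazemetostat Ell2 was -0.00674 on library totals, -0.216 on log2(TPM + 1) and -0.221 on log2(TPM + 0.1). Between the inhibitors it was 0.0923 and 0.0945 on these TPM scales, and with both inhibitors -0.17 and -0.174, and -0.0142 on library totals. Xbp1 with tazemetostat was -0.0918 and -0.0925 on the TPM scales and -0.0122 with the offset, and with both inhibitors -0.0107 and -0.0108 on the TPM scales.

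With valemetostat on log2(TPM + 1) and log2(TPM + 0.1), Tnfrsf13b was -0.103 and -0.104, Hspa5 -0.0103 and -0.0104, Fkbp1a -0.0243 and -0.0244, Igkc -0.036 on both, Trp53inp1 0.00269 and 0.000184, and Prdm15 0.177 and 0.214. With the offset, Tnfrsf13b was -0.038 and Igkc -0.122. With tazemetostat on the TPM scales, Hspa5 was -0.0738 and -0.0739, Igkc -0.0311 on both, and Igha -0.0734 and -0.0739. Igha was -0.0133 on library totals and -0.0272 with the offset, where Igkc was -0.117.

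Leaving out libraries, Ell2 ran from -0.0312 to 0.0136 with valemetostat, from -0.00186 to 0.0411 with tazemetostat and from -0.0126 to 0.0204 with both. Mzb1 with valemetostat ran from -0.0411 to 0.0445, Tnfrsf13b with valemetostat from -0.0271 to 0.0526, and Irf4 between the inhibitors from -0.0496 to 0.0346. Igha ran from -0.0709 to 0.00601 with valemetostat and from -0.0181 to 0.0588 with tazemetostat, and Derl2 with tazemetostat from -0.101 to 0.0485. The cause was not tested. Depth limits Derl3, Sdc1 and Tnfrsf17, with at most 10 counts in a library.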
